A study of Mus musculus with 6 samples.

Results

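The genes described here make, store, take up and break down histamine and serotonin, the amine mediators of mast cells. They are 8 genes chosen by symbol, Hdc, Tph1, Ddc, Slc18a2, Slc6a4, Maoa, Maob and Hnmt, of 55809 genes in the count tables, and all 8 passed the filter on low counts, which left 16716 genes. RNA-seq libraries were made from mast cells that had been sorted out of the skin of mouse fetuses on embryonic day 18.5. There were 3 libraries of prenatal stress offspring and 3 of control offspring, and each library was a pool of 4 mice. All mice were labelled C57BL6J, with males and females used. The dams of the prenatal stress group were held in drilled tubes and brightly lit, in 3 daily sessions of 30 minutes, starting on embryonic day 13.5 in the design text and day 13 in the protocol, and ending on day 18 in the protocol. Control dams were left undisturbed. The sort kept cells with CD45, CD117 and ST2 and without F4/80 and CD64, and the labels do not say from how many dams a pool came, so the tests rest on the spread of these pools alone, which may be technical.

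Mast cells form histamine in one step, by decarboxylation of histidine. Serotonin takes a pair of steps from tryptophan, a hydroxylation that uses tetrahydrobiopterin as cofactor and then a decarboxylation. Both amines are pumped from the cytosol into acidic secretory granules and held there on the proteoglycan serglycin. In rodents the granules of mast cells are known to hold serotonin beside histamine, and mast cells can also take serotonin up from outside. Amine in the cytosol is oxidised by the monoamine oxidases of the mitochondrial outer membrane or, for histamine, methylated.

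The libraries held between 51710555 and 74735139 counts in genes. Levels are in CPM, counts scaled to a common library size with TMM factors, which correct for the make-up of each library, with mean ± SD over 3 pools. Log2 fold changes are prenatal stress over control with their standard error (SE), and each was tested in edgeR by quasi-likelihood, with the Benjamini-Hochberg adjustment over the 16716 genes and a threshold of 0.05. The stress libraries differed among themselves in macrophage transcripts, with replicates 1 and 2 below all controls and replicate 3 slightly above them. The summed level of 16 macrophage and monocyte genes was 5992, 5589 and 8541 CPM in prenatal stress replicates 1, 2 and 3, against 7255, 8264 and 8260 CPM in control replicates 1, 2 and 3. Prenatal stress replicate 1 stood apart in its sex-linked transcripts. On the log2 scale, Y-linked over Xist counts came to 2.80 in prenatal stress replicate 1, and to between -3.27 and -1.32 in the other 5 libraries. The defining transcripts of mast cells were present. Kit, which encodes CD117, was at 2126 ± 220 CPM in the stress libraries and 1818 ± 158 CPM in the controls, and 11 of 11 mast cell markers had counts in every library.

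The comparison asked whether stress of the dam was followed by other levels of the amine genes in the mast cells of the fetal skin. Of the 8 genes, 2 rose, the serotonin transporter gene Slc6a4 and the vesicular monoamine transporter gene Slc18a2. None fell and 6 did not pass. Over all genes tested 6.19% were called, 4.34% higher and 1.85% lower. At an unadjusted p under 0.05 edgeR had 6 of the 8 genes, all but Tph1 and Maoa, beside 24.8% of all genes tested. The groups did not overlap in 5 genes that were higher in every stress library, Hdc, Ddc, Slc18a2, Slc6a4 and Maob, and in 1 gene that was lower in every stress library, Hnmt. Over all genes tested the groups did not overlap in 30.6%, with 16.0% higher and 14.5% lower. The median log2 fold change of the 8 genes was 0.29, beside -0.0039 over all genes tested and 0.55 over the 11 mast cell markers. In bulk samples a different number of cells of a type and a different amount of RNA per cell cannot be told apart.

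**Figure D1:**
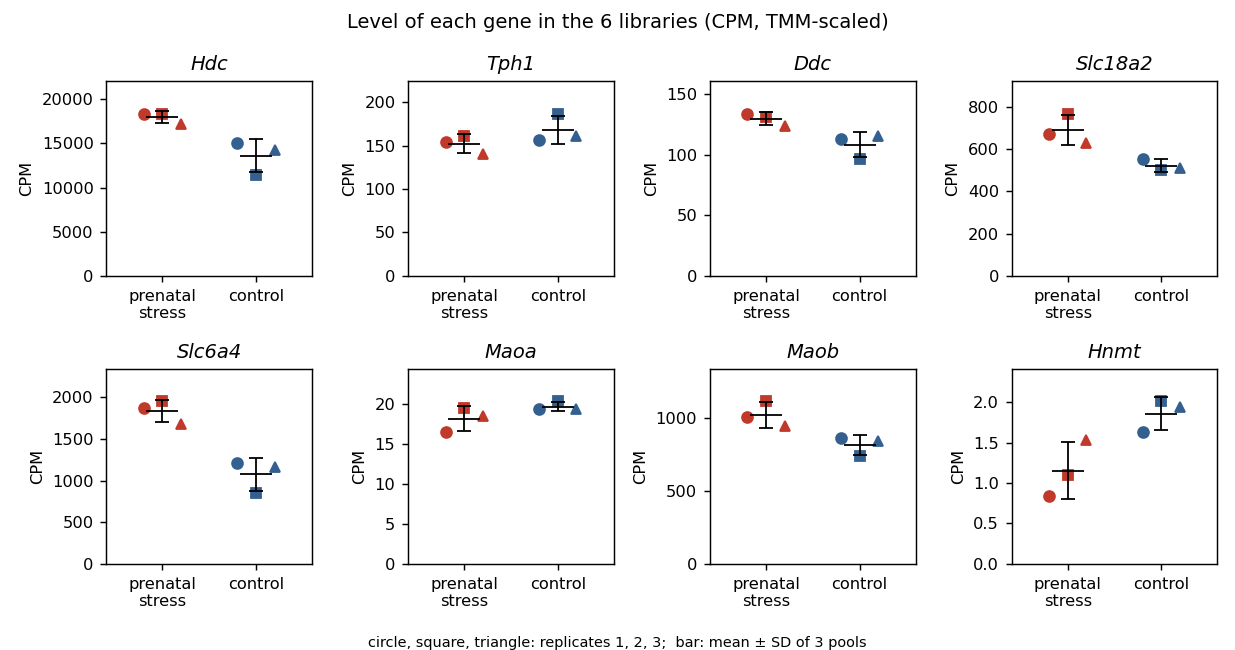
Level of each of the 8 genes in CPM (vertical axes, each starting at 0) in the 3 prenatal stress libraries (red) and the 3 control libraries (blue). Circles, squares and triangles are replicates 1, 2 and 3, and black bars are the mean ± SD. Slc6a4 sits between 1687 and 1952 CPM in the stress libraries and between 851 and 1210 CPM in the controls.

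Of the synthesis enzymes, Hdc was by far the most abundant transcript. Hdc encodes histidine decarboxylase, the enzyme that forms histamine. It was at 18318, 18363 and 17161 CPM in prenatal stress replicates 1, 2 and 3, against 15071, 11457 and 14239 CPM in control replicates 1, 2 and 3. Every stress library lay above every control, with the gap between stress replicate 3 and control replicate 1. The log2 fold change was 0.40 ± 0.10 and did not pass (edgeR adjusted p = 0.0562). The gene was the third most abundant of all genes by mean CPM and took between 1.65% and 1.79% of all counts in genes in the stress libraries, and between 1.23% and 1.55% in the controls.

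The serotonin-forming enzymes did not pass, and their estimates had opposite signs. Tph1 encodes tryptophan hydroxylase 1, the rate-limiting enzyme of serotonin synthesis outside the brain. It was at 154, 162 and 140 CPM in the stress libraries, against 156, 187 and 161 CPM in the controls. The groups overlapped (log2 fold change -0.14 ± 0.08, edgeR adjusted p = 0.321). Ddc encodes aromatic L-amino acid decarboxylase, which turns 5-hydroxytryptophan into serotonin. It was at 134, 131 and 124 CPM in the stress libraries and at 113, 96.4 and 115 CPM in the controls. The groups did not overlap, and the fold change of 0.26 ± 0.08 did not pass (edgeR adjusted p = 0.0770). The ratio of Tph1 to Ddc counts was 1.15, 1.23 and 1.14 in the stress libraries, against 1.38, 1.94 and 1.40 in the controls. It was lower in every stress library. Tph2, the tryptophan hydroxylase gene of neurons, did not pass the filter on low counts, with 7, 4 and 5 counts in the stress libraries and 1, 0 and 1 counts in the controls.

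Both transporter genes rose. Slc6a4 encodes the serotonin transporter of the plasma membrane, which brings serotonin into the cell. It was at 1868, 1952 and 1687 CPM in the stress libraries, against 1210, 851 and 1164 CPM in the controls. The lowest stress library was well above the highest control, and the spread between pools was smaller than the gap between the group means. The log2 fold change was 0.77 ± 0.13 (edgeR adjusted p = 0.0150), a 1.71-fold higher level. Only 2.86% of all genes tested had a larger log2 fold change. The call ended without prenatal stress replicate 1 (adjusted p = 0.0505) or replicate 2 (0.0642), and with the Y-to-Xist ratio as a covariate (log2 fold change 0.81, adjusted p = 0.0551). With prenatal stress replicate 3, the library with the highest macrophage sum, alone against the controls, the estimate was 0.65 (adjusted p = 0.129), and with the macrophage list mean as a covariate it was 0.65 and passed (adjusted p = 0.0215).

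Slc18a2 encodes the vesicular monoamine transporter VMAT2, which loads histamine and serotonin into granules in exchange for protons. It was at 672, 768 and 627 CPM in the stress libraries and at 555, 501 and 509 CPM in the controls. The stress libraries all lay above the controls. The log2 fold change was 0.40 ± 0.08 (edgeR adjusted p = 0.0312). The gene no longer passed without any single one of prenatal stress replicates 1 and 2 and control replicates 1, 2 and 3 (adjusted p from 0.0606 to 0.130). Nor did it pass with the macrophage covariate (log2 fold change 0.28, adjusted p = 0.0724), the Y-to-Xist covariate (0.43, adjusted p = 0.0767) or prenatal stress replicate 3 alone (0.26, adjusted p = 0.192). Of its exons 2.12% overlap a gene on the opposite strand, Gm29261. The estimates of Slc18a2 and Hdc were the same to 2 decimals, and the ratio of Hdc to Slc18a2 counts overlapped between the groups, at 27.2, 23.9 and 27.4 in the stress libraries and 27.1, 22.9 and 28.0 in the controls. In contrast, the ratio of Slc6a4 to Tph1 counts was 12.1, 12.1 and 12.0 in the stress libraries, against 7.77, 4.55 and 7.23 in the controls.

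The sequences before the transcription start of these 3 genes are shown because Slc6a4 and Slc18a2 were the genes that rose and Hdc had the highest level. Each is the 250 bases upstream of the RefSeq start on build GRCm38.p6, 5′ to 3′ on the strand of the gene. Hdc lies at chr2:126618679-126618928, minus strand, Slc18a2 at chr19:59260628-59260877, plus strand, and Slc6a4 at chr11:76998347-76998596, plus strand. Capitals mark matches on either strand to 6 motifs. The core bound by GATA factors was searched as GATAA. The E-boxes of the kind that the mast cell factor MITF binds were searched as CATGTG, and in their palindromic form as CACGTG. The core of the cyclic AMP response element was searched as TGACG. The TATA box was searched as TATAAA, and the GC box, which Sp1 binds, was searched as GGGCGG.
Hdc: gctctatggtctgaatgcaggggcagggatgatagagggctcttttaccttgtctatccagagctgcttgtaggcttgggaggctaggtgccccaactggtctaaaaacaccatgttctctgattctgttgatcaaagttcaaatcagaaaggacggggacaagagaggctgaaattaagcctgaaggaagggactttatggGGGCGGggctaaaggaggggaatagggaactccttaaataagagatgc
Slc18a2: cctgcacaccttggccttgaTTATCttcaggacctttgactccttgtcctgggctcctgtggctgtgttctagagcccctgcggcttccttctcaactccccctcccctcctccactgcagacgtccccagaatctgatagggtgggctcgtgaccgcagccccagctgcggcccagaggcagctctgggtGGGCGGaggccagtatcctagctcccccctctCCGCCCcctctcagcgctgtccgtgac
Slc6a4: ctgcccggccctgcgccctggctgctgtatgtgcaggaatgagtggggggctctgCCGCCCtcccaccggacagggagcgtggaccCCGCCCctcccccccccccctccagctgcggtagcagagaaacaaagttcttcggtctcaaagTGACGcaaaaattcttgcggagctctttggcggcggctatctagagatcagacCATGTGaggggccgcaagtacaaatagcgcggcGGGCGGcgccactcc
The window of Slc6a4 held 3 GC boxes, starting 195, 164 and 15 bases before the start, 1 CATGTG at 48 bases and 1 TGACG at 101 bases. The window of Slc18a2 held 2 GC boxes, at 59 and 27 bases, and 1 GATAA at 230 bases. Hdc held 1 GC box, at 48 bases. RefSeq windows were matched for 7 of the 8 genes, and Maob had none. Among the 7, 5 held GGGCGG in at least 1 window, 3 held TGACG, 2 held GATAA, 1 held CATGTG, 1 held TATAAA and 0 held CACGTG. Of 32851 RefSeq windows of the same length, 32.7% held GGGCGG, 17.8% TGACG, 22.6% GATAA, 12.3% CATGTG, 12.4% TATAAA and 6.02% CACGTG. The shares over all RefSeq windows count single windows, whereas Tph1 and Ddc had 2 windows each. The share of G and C bases was 64.8% for Slc6a4, 64% for Slc18a2 and 48.8% for Hdc. Its median over all windows was 52.4%. The motif matches describe the letters only.

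Of the breakdown enzymes, none passed. Maob encodes monoamine oxidase B, which oxidises phenylethylamine and the methylated product of histamine. It was at 1006, 1113 and 942 CPM in the stress libraries, against 862, 738 and 845 CPM in the controls. Every stress library was above every control, and the log2 fold change of 0.32 ± 0.09 did not pass (edgeR adjusted p = 0.0594). Maoa, the neighbouring X-linked gene, encodes monoamine oxidase A, which prefers serotonin. It was at 16.5, 19.5 and 18.6 CPM in the stress libraries and at 19.4, 20.4 and 19.4 CPM in the controls (log2 fold change -0.11 ± 0.08, edgeR adjusted p = 0.394). The groups overlapped. The ratio of Maob to Maoa counts was 60.9, 57.0 and 50.7 in the stress libraries, against 44.4, 36.2 and 43.6 in the controls, so Maob was the main monoamine oxidase transcript in all 6 libraries. Of the Maoa transcript sequences of 75 bases, 0.977% occur in another annotated gene, and none of the other 7 genes shares any.

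Hnmt encodes histamine N-methyltransferase, which inactivates histamine in the cytosol. It was the rarest of the 8 transcripts, with 42, 59 and 85 counts in prenatal stress replicates 1, 2 and 3, against 125, 118 and 110 counts in control replicates 1, 2 and 3. In CPM it was at 0.833, 1.09 and 1.53 in the stress libraries and at 1.63, 2.01 and 1.94 in the controls. All stress libraries lay below all controls, with stress replicate 3 close to control replicate 1. The log2 fold change of -0.68 ± 0.24 did not pass (edgeR adjusted p = 0.120). Without prenatal stress replicate 3 it was -0.94 and passed (adjusted p = 0.0197), with that library alone against the controls it was -0.28, and with the macrophage covariate -0.41. The stress library with the highest Hnmt level was the one with the highest macrophage sum, and the part of macrophage transcripts in the Hnmt level was not tested. Aoc1, the gene of the other histamine-degrading enzyme, diamine oxidase, did not pass the filter on low counts, with means of 0.0060 CPM in the stress libraries and 0.0043 CPM in the controls.

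**Figure D2:**
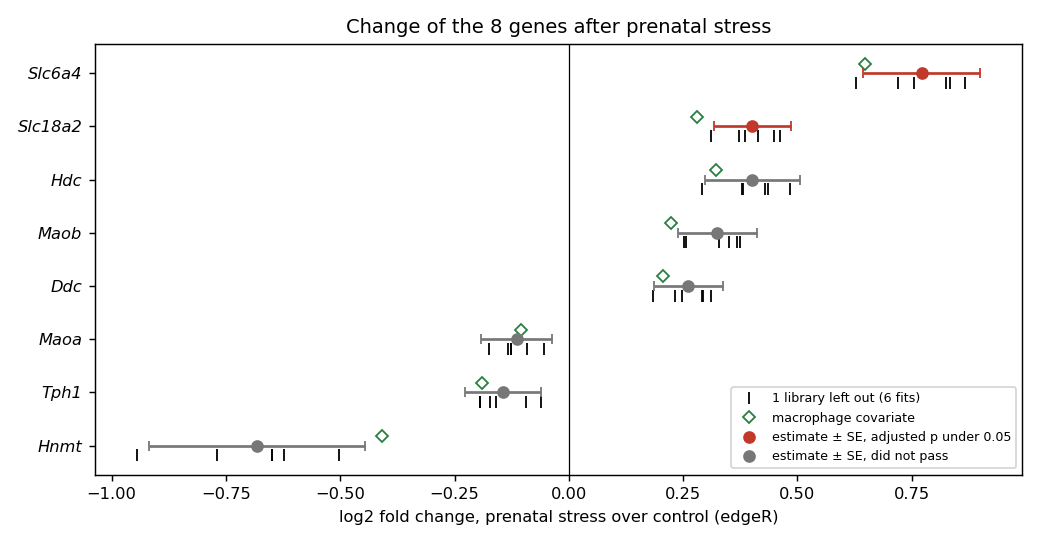
Log2 fold change of prenatal stress over control (horizontal axis) for each of the 8 genes. Points are edgeR estimates ± SE, red where the adjusted p was under 0.05, ticks are the 6 fits that left out 1 library, and diamonds are the fit with the macrophage covariate. Slc6a4 stays between 0.63 and 0.87 when 1 library is left out, and the Hnmt estimates spread from -0.94 to -0.50.

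Per length of annotated exons the genes kept a wide range of levels. In CPM per kilobase, Hdc was at 2809 ± 107 in the stress libraries and 2127 ± 296 in the controls. Slc6a4 was at 405 ± 29.9 and Maob at 366 ± 31.0 CPM per kilobase in the stress libraries, while in the controls Slc6a4 was at 237 ± 43.2 and Maob at 292 ± 24.0. The order of these neighbours was thus Slc6a4 before Maob by mean in the stress libraries and the reverse in the controls, and their libraries overlapped in both groups. Slc18a2 followed, at 132 ± 13.8 CPM per kilobase in the stress libraries and 99.9 ± 5.57 in the controls. Ddc was at 29.1 ± 1.21 and Tph1 at 24.6 ± 1.73 CPM per kilobase in the stress libraries without overlap, and in the controls Ddc was at 24.3 ± 2.31 and Tph1 at 27.2 ± 2.69 with overlap. Maoa was at 4.37 ± 0.370 CPM per kilobase in the stress libraries and 4.73 ± 0.136 in the controls, and Hnmt at 0.651 ± 0.199 CPM per kilobase in the stress libraries and 1.05 ± 0.114 in the controls.

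The genes were also set against the sort genes within each library, which needs no library scaling. Slc6a4 was the gene whose ratio was higher in every stress library against each of the 3 sort genes used. The share of all genes that were higher in such ratios was not computed. In CPM, 16.0% of all genes tested were higher without overlap. Slc6a4 had 0.803, 0.902 and 0.893 counts per Kit count in the stress libraries, against 0.629, 0.520 and 0.615 in the controls (mean log2 difference 0.56). The difference was 0.33 against Il1rl1, which encodes ST2, and 0.67 against Ptprc, which encodes CD45. Exact two-sided permutation tests gave p = 0.1 for each, the smallest that 3 against 3 allows (0.16, 0.133 and 0.114 adjusted over the 8 genes). Hdc had 7.88, 8.49 and 9.08 counts per Kit count in the stress libraries and 7.83, 7.01 and 7.52 in the controls, a log2 difference of 0.19 (exact p = 0.1, adjusted 0.16). Against Il1rl1, itself called higher (log2 fold change 0.45, edgeR adjusted p = 0.0312), the Hdc difference was -0.04 (exact p = 0.7) with overlap. Slc18a2 had 0.289, 0.355 and 0.332 counts per Kit count in the stress libraries and 0.289, 0.306 and 0.269 in the controls, which overlapped (difference 0.17, exact p = 0.2), and its difference against Il1rl1 was -0.05. Against Ptprc both genes were higher in every stress library, by 0.30 for Hdc and 0.28 for Slc18a2 (exact p = 0.1 each, adjusted 0.114).

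Tph1, Maoa and Hnmt were lower in every stress library against each of the 3 sort genes. Tph1 had 0.0663, 0.0747 and 0.0743 counts per Kit count in the stress libraries, against 0.0810, 0.114 and 0.0850 in the controls (log2 difference -0.37 against Kit, -0.59 against Il1rl1 and -0.26 against Ptprc). The differences of Maoa were -0.34, -0.57 and -0.23, and those of Hnmt were -0.95, -1.18 and -0.84. Each of these had an exact two-sided p of 0.1. The sort genes themselves had positive log2 fold changes, 0.23 for Kit, 0.45 for Il1rl1 and 0.12 for Ptprc. A gene at an unchanged level would thus also tend to come out lower in these ratios. In CPM, Tph1 and Maoa overlapped between the groups. The share of all genes that were lower in such ratios was not computed. Maob and Ddc changed sign with the gene they were set against. Their differences were 0.10 and 0.04 against Kit, -0.13 and -0.19 against Il1rl1, and 0.21 and 0.15 against Ptprc.

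**Figure D3:**
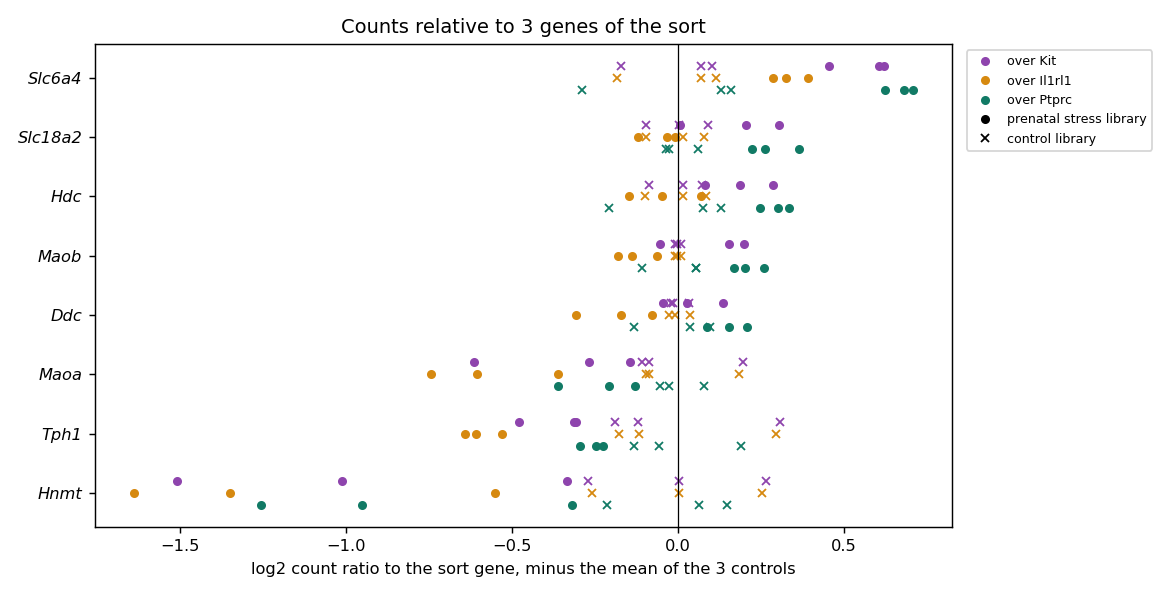
Log2 ratio of each gene's count to the count of Kit (purple), Il1rl1 (orange) or Ptprc (green) in each library, less the mean of the 3 controls (horizontal axis). Dots are prenatal stress libraries and crosses are control libraries. The Slc6a4 dots lie right of all crosses of their colour, the Tph1, Maoa and Hnmt dots lie left of them, and those of Hdc and Slc18a2 over Il1rl1 mix with the crosses.

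The other genes of amine metabolism were read from 11 lists of 97 genes in the tables, 64 of which were tested. Of these 8 rose, 1 fell and 55 did not pass (median log2 fold change 0.07). The shares over all genes tested, 4.34% higher and 1.85% lower, stand beside this and each list count below. The clearest changes were in the cofactor pathway of tryptophan hydroxylase. Of 8 genes of tetrahydrobiopterin synthesis and recycling 2 rose and none fell (median 0.30). Gch1, GTP cyclohydrolase, the first and rate-limiting enzyme of tetrahydrobiopterin synthesis, was at 97.1, 99.1 and 93.3 CPM in the stress libraries, against 51.6, 41.7 and 46.5 CPM in the controls. The stress libraries averaged 2.07-fold the level of the controls, without overlap (log2 fold change 1.05 ± 0.08, edgeR adjusted p = 7.56e-04). Pcbd1, which acts in tetrahydrobiopterin recycling, was at 24.1, 23.2 and 24.5 CPM in the stress libraries and at 15.9, 12.7 and 15.0 CPM in the controls (0.72 ± 0.09, edgeR adjusted p = 0.00623). Gch1 and Pcbd1 passed in each of the 6 fits lacking a library (log2 fold changes from 0.97 to 1.13 for Gch1 and from 0.63 to 0.79 for Pcbd1), with each covariate, and with prenatal stress replicate 3 alone. Qdpr, the recycling reductase, and Pts, a synthase of the pathway, had log2 fold changes of 0.01 and 0.05 and did not pass.

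Transporters of the amino acid precursors changed in both directions. Of 12 tested genes of tryptophan and histidine uptake and competing breakdown 3 rose and 1 fell (median -0.31). Slc7a5 and Slc3a2 encode the light and heavy chains of the large neutral amino acid transporter LAT1, which carries tryptophan and histidine. Slc7a5 was at 3514, 3624 and 3366 CPM in the stress libraries, against 2696, 2031 and 2676 CPM in the controls (0.50 ± 0.11, edgeR adjusted p = 0.0334). Slc3a2 was at 1633, 1918 and 1764 CPM in the stress libraries and at 1365, 999 and 1310 CPM in the controls (0.53 ± 0.12, edgeR adjusted p = 0.0369). Slc7a8, the light chain of the related LAT2, was at 573 ± 13.1 CPM in the stress libraries and 393 ± 61.3 CPM in the controls (0.55 ± 0.11, edgeR adjusted p = 0.0238). Slc43a2, the amino acid transporter LAT4, fell to 48.0 ± 6.78 CPM in the stress libraries, against 63.0 ± 2.83 CPM in the controls (-0.39 ± 0.10, edgeR adjusted p = 0.0483). None of these 4 genes passed without prenatal stress replicate 1, prenatal stress replicate 2 or control replicate 3, and adjusted p reached 0.184 for Slc43a2. Slc7a5, Slc3a2 and Slc43a2 also did not pass without control replicate 1, and Slc3a2 and Slc43a2 without control replicate 2. With the Y-to-Xist covariate or with prenatal stress replicate 3 alone none of the 4 passed either, and with the macrophage covariate Slc7a8 did (adjusted p = 0.0381) while Slc7a5, Slc3a2 and Slc43a2 did not (adjusted p from 0.0651 to 0.0755). The Slc43a2 estimate was -0.24 with the macrophage covariate and -0.19 with prenatal stress replicate 3 alone. Its level was 46.8, 41.9 and 55.3 CPM in prenatal stress replicates 1, 2 and 3, highest in the library with the highest macrophage sum, and the part of macrophage transcripts in it was not tested. The tryptophan-degrading enzyme genes Ido1, Ido2 and Tdo2 did not pass the filter on low counts.

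Storage genes beside Slc18a2 rose in part. Of 19 subunits of the vacuolar proton pump, which acidifies granules, 2 rose and none fell (median 0.15). They were Atp6v1h, at 138 ± 10.9 CPM in the stress libraries and 108 ± 3.56 CPM in the controls (0.35 ± 0.07, edgeR adjusted p = 0.0237), and Atp6v0e, at 114 ± 4.46 CPM in the stress libraries and 93.5 ± 4.51 CPM in the controls (0.28 ± 0.06, edgeR adjusted p = 0.0290). Srgn, the core protein of serglycin, was at 3478, 3560 and 3148 CPM in the stress libraries, against 2542, 2378 and 2641 CPM in the controls (0.43 ± 0.07, edgeR adjusted p = 0.0175). None of the 3 passed without prenatal stress replicate 2 or without any single control library, with adjusted p as high as 0.123 for Atp6v0e. With prenatal stress replicate 3 alone none of the 3 passed (adjusted p from 0.0517 to 0.138), with the Y-to-Xist covariate Srgn (0.0554) and Atp6v0e (0.0510) did not, and Atp6v0e also did not with the macrophage covariate (0.0537) or with library totals (log2 fold change 0.17, adjusted p = 0.0625). Ndst2, a sulfotransferase of heparin synthesis, was at 562 ± 89.4 CPM in the stress libraries and 527 ± 41.2 CPM in the controls and did not pass.

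In the remaining lists no gene passed. Among histamine genes Hrh4, the histamine H4 receptor, was at 25.4, 26.9 and 23.3 CPM in the stress libraries, against 21.1, 18.8 and 21.3 CPM in the controls (0.30 ± 0.08, edgeR adjusted p = 0.0577), and Hrh2, the H2 receptor, was at 0.927 ± 0.0413 CPM in the stress libraries and 1.07 ± 0.299 CPM in the controls. Of 19 other serotonin and melatonin genes 4 were tested, with Tgm2, a transglutaminase that can attach serotonin to proteins, the highest at 64.5 ± 5.97 CPM in the stress libraries and 70.1 ± 1.84 CPM in the controls. Slc22a3, a low-affinity organic cation transporter that carries histamine and serotonin, was at 157 ± 11.7 CPM in the stress libraries and 147 ± 7.50 CPM in the controls. The vitamin B6 kinase gene Pdxk, which supplies the cofactor of Hdc and Ddc, was at 469 ± 34.5 CPM in the stress libraries and 372 ± 42.3 CPM in the controls (0.33 ± 0.09, edgeR adjusted p = 0.0685). Aldh2 and Akr1a1, which take up the aldehydes left by amine oxidation, had log2 fold changes of -0.29 and -0.06. Of the lineage transcription factors, Gata2 was at 1661 ± 169 CPM in the stress libraries and 1386 ± 148 CPM in the controls (edgeR adjusted p = 0.155), and Mitf was at 129 ± 15.2 CPM in the stress libraries and 116 ± 16.0 CPM in the controls.

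**Figure D4:**
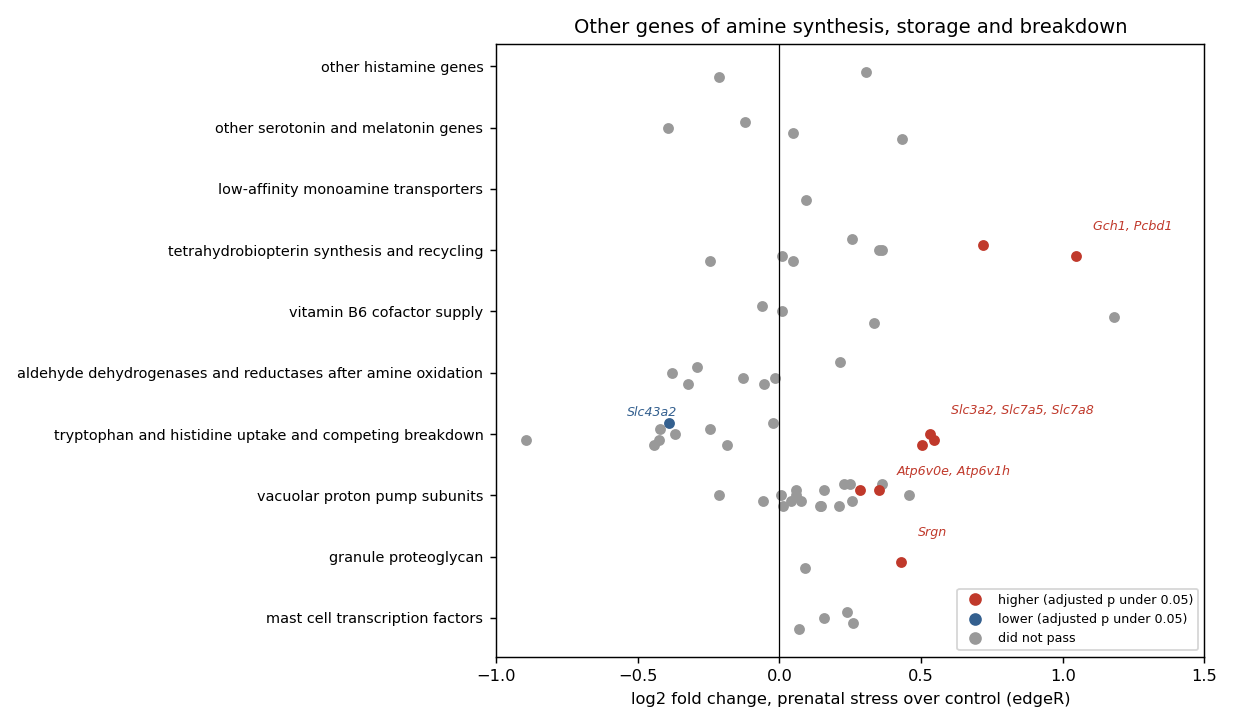
Log2 fold change of prenatal stress over control (horizontal axis) for the tested genes of the lists shown (rows). Each dot is a gene, red where it rose, blue where it fell and grey where it did not pass, and the genes called are named. Gch1, at 1.05, and Pcbd1, at 0.72, stand furthest right among those that passed.

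Among 2070 genes with a mean of at least 100 CPM, the profiles closest to Hdc over the 6 libraries were those of Esyt2, Kifbp and Csrnp1. Their root mean square differences from Hdc were 0.031, 0.035 and 0.036 in log2 CPM after centring each gene over the libraries. Each of the 3 was called higher, with log2 fold changes of 0.42, 0.39 and 0.42. The profiles closest to Tph1 were those of Mcpt-ps1, Nop58 and Nucks1, with differences of 0.039, 0.055 and 0.066, and none of them passed. The profiles compared share the same 6 libraries and their scaling. These genes were picked for profiles like those of Hdc and Tph1, group difference included. Their fold changes therefore follow from the choice and add no separate result.

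Markers of other cells moved with some results, beside 4.34% higher and 1.85% lower among all genes tested. All 5 melanocyte genes rose, with log2 fold changes of median 1.56, and their sum was 39.2, 69.8 and 28.5 CPM in the stress libraries, against 19.5, 13.9 and 13.9 CPM in the controls, without overlap. Platelets take up serotonin with the same transporter, and of 7 megakaryocyte and platelet genes 1 rose, Itga2b, at 96.6 ± 8.49 CPM in the stress libraries and 61.5 ± 11.3 CPM in the controls. The list summed to between 132 and 152 CPM in the stress libraries and between 88.6 and 112 CPM in the controls. Gp1ba was at 38.2 ± 3.68 CPM in the stress libraries and 30.3 ± 2.20 CPM in the controls. It was higher in every stress library and did not pass (log2 fold change 0.33, edgeR adjusted p = 0.0550). Gp1bb was at 0 in all 6 libraries, and the platelet genes Gp9 and Ppbp were at 0.571 ± 0.191 and 5.96 ± 2.57 CPM in the stress libraries, against 0.526 ± 0.0878 and 7.22 ± 0.473 CPM in the controls. Of 4 basophil genes 3 rose, Mcpt8, Cd200r3 and Itga2, with a summed level from 795 to 995 CPM in the stress libraries and from 512 to 614 CPM in the controls. Of 11 mast cell markers 8 rose, and their sum was 72608, 83775 and 67392 CPM in the stress libraries, against 54745, 46409 and 55695 CPM in the controls. Of the 16 macrophage and monocyte genes 1 rose, Cd68, and 1 fell, Cx3cr1, and none was at 0. The part of melanocyte, platelet and basophil transcripts in the changes of Slc6a4, Slc18a2, Gch1 and Pcbd1 was not tested.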

How the data were processed

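Mast cells sorted from fetal mouse skin were sequenced as stranded poly-A libraries, 3 pools per group, per the labels' protocols. The authors deposited raw counts of reads per gene symbol. FastQC, STAR 2.4 and HTSeq 0.9.1 and the builds GRCm39 and mm10 are named in the submitters' processing notes, while neither strand setting nor annotation is given in the sources used here. In each library 79.7% to 81.4% of tallied reads fell in genes, and the 5 rows that name no gene (8.49% to 9.00% of reads not uniquely aligned, 7.83% to 9.78% outside features, 1.77% to 1.85% ambiguous) were left out. Genes were filtered with filterByExpr (minimum count 10), scaled with TMM factors and tested with edgeR 4.0.16 (R 4.3.3), with no covariate. The fit was also run on counts simulated with known changes. Those counts lacked shared differences between pools, such as the one in macrophage transcripts, so they cannot speak to the calls made here. CPM values use the TMM-scaled sizes. Exon lengths came from GENCODE M21, which matched 90.8% of gene rows and all 8 genes, and promoters from RefSeq (GRCm38.p6). Ratios to sort genes were compared with exact permutation tests over libraries. Log2 values for the closest profiles used a prior of 0.5 CPM. Named were the 8 genes, the sort genes, list genes that passed, the most abundant pair of each list and the closest profiles. Under the same rule fall Adgre1 and Fcgr1, the genes of F4/80 and CD64, with log2 fold changes of -0.43 and -0.24. So do Htr2a, Plpbp, Atp6ap1 and Atp6v1a, at 0.43, 0.01, 0.21 and 0.15, and none of these genes passed. Other names in the text (among them Tph2, Aoc1, Ido1, Ido2, Tdo2, Pts, Mcpt8, Gp9 and Cd68) were chosen after their values were seen. A gene that the naming rule covers is not reported here. The members and lists were chosen with earlier results of these data known. Alternatives were RLE (relative log expression) and upper-quartile factors, library totals, no filter, a filter that asked for 10 counts or more in 3 libraries or more with a mean CPM no lower than 1, limma-voom (limma 3.58.1), DESeq2 1.42.0, the replicate block, the Y-to-Xist and macrophage covariates, each library left out, and prenatal stress replicate 3 alone, where the fit assumes that the lone library varies like the controls.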

Additional observations from a re-analysis of the deposited data

How the results depend on the processing

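The signs of all 8 genes were the same in every alternative fit and with each library left out. Genes called were 1035, of which 725 were higher. They were 1933 with no filter, 1969 with DESeq2, 622 with the replicate block, 410 with the Y-to-Xist covariate, 171 with prenatal stress replicate 3 alone, and 196 (without prenatal stress replicate 2) to 2647 (without prenatal stress replicate 3) with 1 library left out. With library totals only, 2085 were called, 553 higher and 1532 lower, and the median of all genes moved to -0.12 on the log2 scale. Of the 8 genes, 2 were called. The number was 3 with upper-quartile factors, library totals only or the filter on mean CPM. Over all genes those fits called 1083, 2085 and 1206, and a changed filter also changes which genes were tested. In these fits Hdc also passed (edgeR adjusted p = 0.0487, 0.0493 and 0.0480). With no filter or with DESeq2 the number was 5 (Hdc, Ddc, Slc18a2, Slc6a4 and Maob), beside 1933 and 1969 over all genes. It was 1 with the macrophage covariate (Slc6a4), where the count over all genes is not given here, and 0 with the Y-to-Xist covariate. With 1 library left out it was 0 to 6, the most without prenatal stress replicate 3, where calls over all genes also peaked. None of the 8 passed without prenatal stress replicate 1 or 2. Other pathway genes called were 9, and 15 with no filter, 21 with DESeq2, 5 with the macrophage covariate, 4 with the Y-to-Xist covariate, 2 with prenatal stress replicate 3 alone, and 2 to 23 with 1 library left out. With the replicate block, 1 of the 8 genes (Slc6a4, log2 fold change 0.79, adjusted p = 0.0300) and 4 other pathway genes were called (Gch1, Pcbd1, Slc7a8 and Atp6v1h), while Slc18a2 (adjusted p = 0.0592), Slc7a5, Slc3a2, Slc43a2, Srgn and Atp6v0e (0.0509 to 0.0706) were not. Libraries with the same number did not deviate together (correlations of their deviations 0.13, -0.08 and 0.06). For libraries with different numbers the correlations ran from -0.28 to 0.21. With 3 pools per group these values cannot exclude a batch shared by number, and the labels name no pairing. With Il1rl1 in place of Kit the log2 differences of Hdc, Ddc, Slc18a2 and Maob changed sign, to -0.041, -0.19, -0.054 and -0.13, and the Ddc difference to Kit ran from -0.0078 (without prenatal stress replicate 3) to 0.083 with 1 library left out. The causes of these changes were not tested. Hnmt had the fewest counts of the 8 genes, 42 to 125 per library.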
